A study of Mus musculus with 2 samples.

Results

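The clustered protocadherin genes lie in tandem in the alpha, beta and gamma clusters of mouse chromosome 18, and the 5-hydroxymethylcytosine (5hmC) peaks of that stretch are described here. A peak belonged to it if its midpoint lay between 37080000 and 38010000 on chromosome 18 (build mm9), a window of 930 kb. That rule held for 57 of 57827 peaks in the list recorded for cells with ascorbic acid and for 61 of 63834 in the list recorded for cells without it, or 118 of 121661 in all. The members were thus chosen by position, but the window was picked with peak numbers of these lists known. Its number and density of peaks are therefore a description and support nothing.

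Protocadherins of these clusters are adhesion proteins of the cadherin family that neurons display in varied combinations on their surface, by which a neuron tells its own branches from those of others. In the alpha and gamma clusters, a long row of variable exons, each with its own promoter, is followed by constant exons to which any chosen variable exon is spliced, while each beta gene is a single exon. Which promoters a neuron uses is tied to CTCF binding and to DNA methylation. 5hmC is made from 5-methylcytosine by the Tet dioxygenases, so it marks places where methylated DNA is being oxidised, and ascorbic acid (vitamin C) is a reducing agent that supports enzymes of that family.

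All cells were mouse embryonic stem (ES) cells, which are pluripotent cells and not neurons, of strain 129SvEv. The AA group had been given 100 µM ascorbic acid (AA) for 24 h, and the label of the other sample names no incubation, so by the design of the series it is the group without AA. Genomic DNA was sheared, its 5hmC was tagged with biotin, and the tagged fragments were pulled down. There was 1 library a group, no input library was used here, and no spread between replicates can be given. The headers of both lists name the other sample. The lists are called AA-labelled and no-AA-labelled as recorded. Were the headers right instead, each direction given here would be the opposite one. After removal of duplicates the AA-labelled library held 11907082 tags (aligned reads) and the no-AA-labelled library 18398162, and the caller's fragment lengths were 229 and 165 bp. A place without a peak is one not called, not one without 5hmC.

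By name, all 58 genes of the protocadherin list were found in the RefSeq table of another mouse build (GRCm38.p6), from which only names and gene order were taken. The alpha cluster has 14 of them, from Pcdha1 to Pcdhac2. The beta cluster has 22, from Pcdhb1 to Pcdhb22, and the gamma cluster 22, from Pcdhga1 to Pcdhgc5. Zmat2 is the coding gene before Pcdha1. Slc25a2, a mitochondrial carrier of amino acids, follows Pcdhb22, Taf7, a part of the general transcription factor TFIID, stands before Pcdhga1, and Diaph1, an actin-nucleating formin, follows Pcdhgc5. Peaks were not assigned to single genes. The sub-blocks are stretches of mm9 coordinates: alpha from 37080000 to 37360000, beta from 37360000 to 37700000, gamma from 37800000 to 38010000, and between beta and gamma a stretch of 100 kb that belongs to neither.

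**Figure D1:**
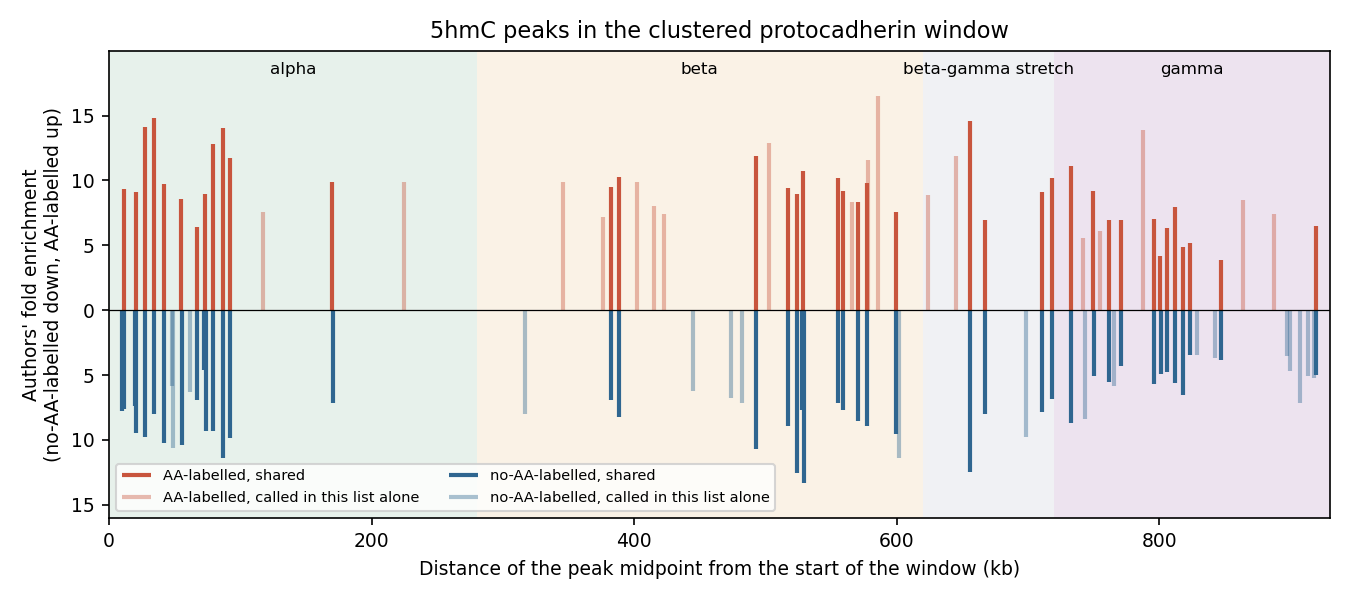
Each bar is a peak of the window, placed by the distance of its midpoint from the window's start (x axis, kb), and its length is the authors' fold enrichment (y axis), upward for the AA-labelled and downward for the no-AA-labelled list. Dark bars are shared peaks and pale bars peaks called in 1 list alone; both lists have a close row of peaks at the start of the alpha block, few peaks from there to the beta block, and gamma peaks of lower fold.

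Both lists were dense in peaks across the window. The AA-labelled list had 61.3 peaks per Mb (exact Poisson interval 46.4 to 79.4) and the no-AA-labelled list 65.6 (50.2 to 84.3). On the rest of chromosome 18, the flanks included, these densities were 21.3 and 22.9, so the window held 2.88 times (2.17 to 3.75) and 2.87 times (2.18 to 3.70) as many peaks per Mb. The window makes up 1.02% of the chromosome's length and held 2.90% of its AA-labelled and 2.88% of its no-AA-labelled peaks. None of the 95 other full windows of 930 kb laid along the chromosome from this one held as many in either list. Their medians were 19 and 21 peaks and their maxima 45 and 41. The AA-labelled maximum was that of the adjoining window, from 38010000 to 38940000. With the first 3 Mb of the chromosome left out, the density ratios to the rest were 2.78 and 2.77.

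The surroundings were richer than the chromosome as a whole, but less so than the window. The 1-Mb flank before it held 30 peaks of the AA-labelled list and 35 of the other. In the 1-Mb flank after it were 46 and 38. Against both flanks together the window's density was 1.61 times (1.12 to 2.30) as high in the AA-labelled list and 1.80 times (1.26 to 2.56) in the other. The edges of the window fell in stretches without peaks. The first members began at 37089805 and 37089743 and the last ended at 37999973 and 37999850, all with midpoints 10.1 to 11.0 kb inside. The nearest peaks outside had their midpoints 113 and 28.5 kb before the window and 31.1 and 72.7 kb after it, with 16 to 19 tags each. The peaks just inside had 66 and 23 tags at the start and 19 and 27 at the end, in the respective lists.

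**Figure D2:**
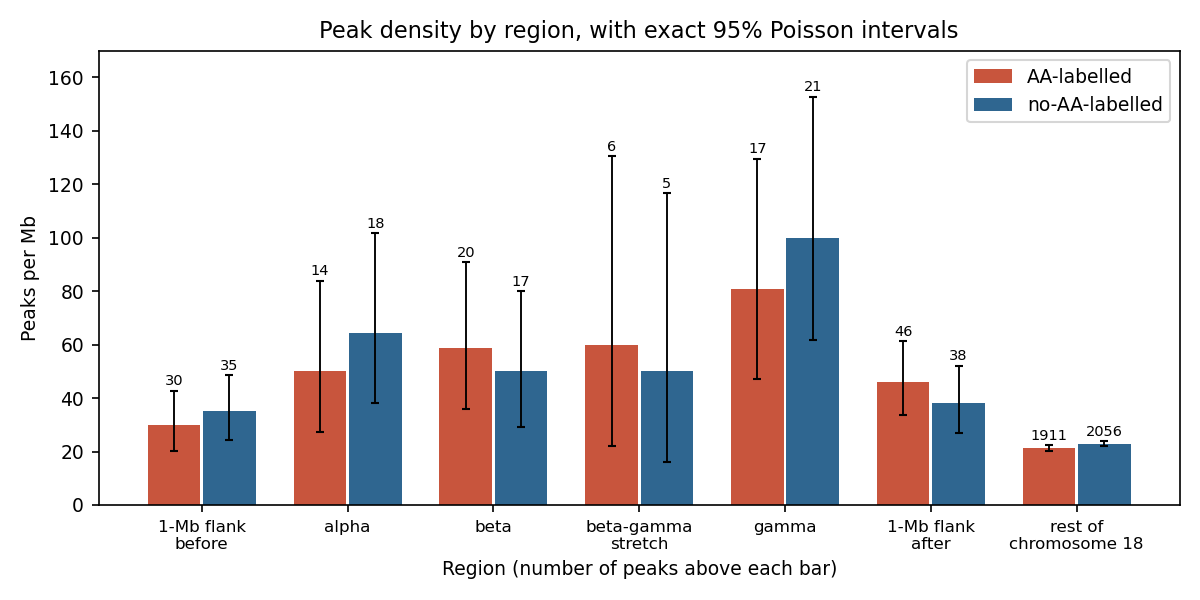
Bars give peaks per Mb (y axis) in each region (x axis) for both lists, with exact 95% Poisson intervals as error bars and the number of peaks above. The gamma block stands highest, at 81.0 and 100 peaks per Mb, and its intervals overlap those of the other blocks of the window.

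The peaks of the window were also strong ones. The caller gave a p no higher than 1e-10 to 29 of 57 AA-labelled members, or 50.9% (Clopper-Pearson 37.3% to 64.4%), against 22.9% of all AA-labelled peaks and 7 of 76 in the flanks. In the no-AA-labelled list it was 22 of 61, or 36.1% (24.2% to 49.4%), against 18.4% of all peaks and 5 of 73 in the flanks. With these strong peaks alone the window's density over the rest of chromosome 18 rose to 6.50 and 5.97 times, and over the flanks to 8.91 and 9.46 times. By the fold enrichment the window stood less apart from all peaks: at least 10-fold were 17 AA-labelled members (29.8%, 18.4% to 43.4%) and 9 no-AA-labelled ones (14.8%, 6.98% to 26.2%), beside 21.7% and 10.4% of all peaks. Both intervals hold the level of all peaks. The flanks lay lower, with 7 of 76 AA-labelled (9.21%, 3.78% to 18.1%) and 0 of 73 no-AA-labelled peaks (at most 4.93%), and neither interval overlaps that of the window.

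The members were longer than other peaks of the chromosome by their medians. The median AA-labelled member was 1186 bp long (1085 to 1626) against 990 bp on the rest of chromosome 18, and the median no-AA-labelled member 830 bp (736 to 1105) against 737.5 bp. They held a median of 32 tags (27 to 49) against 26 in the AA-labelled list and 29 (24 to 42) against 25 in the other. The no-AA-labelled intervals reach down to about the level of the rest of the chromosome, 736 bp beside 737.5 bp and 24 tags beside 25. Against the flanks the tag counts turned round: the median flank peak held 34 and 31 tags, more than the members' 32 and 29. Flank lengths had medians of 1035.5 and 831 bp, the latter within 1 bp of the members' 830 bp. Peaks covered 8.96% of the window in the AA-labelled list and 7.28% in the no-AA-labelled list, which was 3.69 and 3.80 times the covered share of the rest of chromosome 18.

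Most members were found in both lists when all peaks were taken. Of the AA-labelled members 39 of 57 overlapped a no-AA-labelled peak by at least 1 bp, or 68.4% (54.8% to 80.1%), beside 47.5% of all AA-labelled peaks and 25 of 76 in the flanks. Of the no-AA-labelled members 43 of 61 were shared, or 70.5% (57.4% to 81.5%), beside 43.6% of all and 25 of 73 in the flanks. Among peaks of at least 10-fold in both lists, 23.5% of the AA-labelled and 44.4% of the no-AA-labelled members were shared. No share of other peaks at that cutoff is given here. Whether these lower shares are particular to the members was therefore not tested. Sharing differs with strength, and the members are stronger, so both classes are given. Of the members with a p of at most 1e-10, 25 of 29 and 21 of 22 were shared, against 76.3% and 77.5% on the rest of chromosome 18. Of the weaker members 14 of 28 (50%, 30.6% to 69.4%) and 22 of 39 (56.4%, 39.6% to 72.2%) were shared, against 36.1% and 34.9%. The AA-labelled intervals of both classes hold the share of the rest of the chromosome, and so does that of the strong no-AA-labelled class by a narrow margin, since it starts at 77.2%. The interval of the weaker no-AA-labelled members lies above its level of 34.9%. Peaks of a library are not replicates, and these intervals cover counting error only.

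Merging peaks that overlapped gave 75 separate sites in the window. Both lists had a peak at 39 sites, the AA-labelled list alone at 18 and the no-AA-labelled list alone at 18. Neighbouring sites lay a median of 7.06 kb apart (quartiles 5.67 and 13.6 kb), and 49 of 74 distances were under 10 kb. Within single lists the share of distances under 10 kb was 57.1% in the AA-labelled and 66.7% in the no-AA-labelled list, against 19.1% and 20.8% on the rest of chromosome 18. The treatment of reads that fit several places is not given, and variable exons of 1 cluster resemble each other in sequence. Its part in the number of peaks was not tested.

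**Figure D3:**
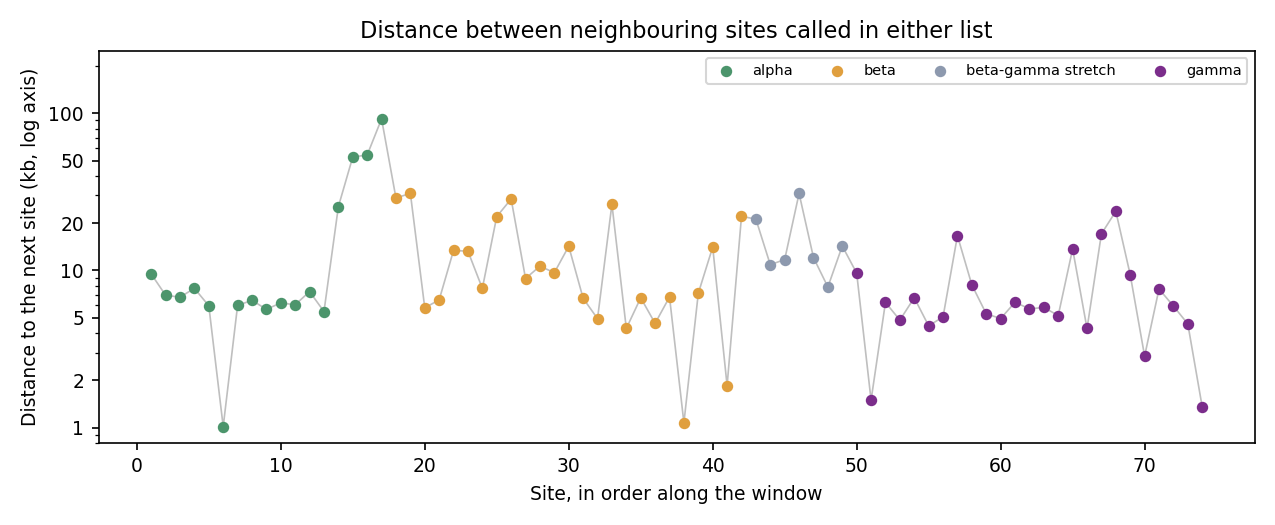
Each point is a site called in either list, in order along the window (x axis), and its height is the distance to the midpoint of the next site (y axis, kb, log scale), coloured by block. The first 13 distances, in the alpha block, lie between 5.48 and 9.49 kb but for 1 of 1.01 kb; the longest, 92.1 kb, leads from the alpha into the beta block.

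The alpha block opened with an even row of sites. Between 37089743 and 37172598, a span of 82.9 kb, lay 14 sites, and 12 of the 13 distances between them were of 5 to 10 kb, with a median of 6.21 kb. Such close sites are not particular to alpha. Over the whole gamma block the median distance was 5.81 kb (quartiles 4.83 and 8.09 kb), and 21 of 25 distances were under 10 kb. The alpha row was singled out after its values were seen, and ends before the first distance of over 20 kb. Both lists had a peak at 11 of its sites and the no-AA-labelled list alone at 3. No site of the row was called in the AA-labelled list alone. The row held 11 of the 14 AA-labelled and 17 of the 18 no-AA-labelled peaks of the block. Of the AA-labelled members 4 of 57 met 2 or more no-AA-labelled peaks, 3 of them in the alpha block. On the rest of chromosome 18 it was 7 of 1911 AA-labelled peaks, and on all chromosomes 421 of 57827. Whether such peaks were split in the no-AA-labelled or joined in the AA-labelled list was not tested. The peak numbers of this block do not differ beyond counting error (ratio 0.778, 0.358 to 1.66).

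The alpha pair of highest mean fold enrichment lay at 37166085 to 37167108 in the AA-labelled list, with 37 tags at 14.06-fold, and had 42 tags at 11.42-fold in the other. The next, at 37106697 to 37108224, had 62 tags at 14.16-fold and 38 tags at 9.78-fold. At 37113699 to 37114742 an AA-labelled peak of 27 tags was 14.85-fold and its partner of 19 tags 8.00-fold. All 3 belong to the row, and in each the AA-labelled fold was the higher. Of the sites in the row called without AA alone, the strongest was at 37128550 to 37129227, with 26 tags (Poisson interval 17.0 to 38.1) at 10.61-fold, followed by 37140992 to 37141676 with 22 tags at 6.27-fold.

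Past the row the alpha block held 3 further sites, and no density was computed for this part of it. AA-labelled peaks stood alone at 37197019 to 37198064 (24 tags, 7.56-fold) and at 37304163 to 37304914 (19 tags, 9.90-fold). Between them both lists had a peak at 37249684 to 37250908, with 17 and 14 tags. The longest stretch of the window with no peak in either list came next, 91.4 kb from 37304914 to 37396331, across the border of the alpha and beta blocks. It measured 120.2 kb in the AA-labelled and 145.4 kb in the no-AA-labelled list, counted between that list's own peaks.

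In the beta block the AA-labelled list had 20 peaks and the no-AA-labelled list 17, and the lists differed more in covered length. AA-labelled peaks covered 25.1 kb and no-AA-labelled peaks 13.1 kb, a ratio of 1.91. It was 1.27 on the rest of chromosome 18, 1.16 in the alpha block and 0.974 in the gamma block. Between beta and gamma it was 1.45, and in the flanks 1.25 before and 1.56 after the window. No interval was computed for these ratios. Of 25 sites, 11 were in both lists, 9 in the AA-labelled list alone and 5 in the other alone. The AA-labelled shared portion was 11 of 20 (55.0%, 31.5% to 76.9%), and the no-AA-labelled one 12 of 17 (70.6%, 44.0% to 89.7%). The fullest AA-labelled bin of 50 kb in the window was in this block, at 37630000 to 37680000, with 8 peaks against 5.

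The strongest AA-labelled peak of the whole window by fold was a beta peak without a partner. It lay at 37665134 to 37666161 with 28 tags (18.6 to 40.5) at 16.50-fold. A further AA-labelled peak without a partner was at 37582280 to 37583400, with 23 tags at 12.87-fold. In the no-AA-labelled list the leading beta peaks without a partner were at 37681222 to 37681913 (24 tags, 11.36-fold) and at 37396331 to 37396935 (17 tags, 8.00-fold). Their tag counts in the other library are not in the lists, and no density ratio was computed for them.

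The beta pair of highest mean fold was at 37572660 to 37573667, with 27 tags at 11.88-fold and 25 tags at 10.67-fold. At 37603147 to 37604332 it was the no-AA-labelled peak that had the higher fold, 12.54 with 26 tags, against 8.96 with 32 tags. The pair at 37656905 to 37657922 had 21 tags in each library, at 9.80-fold and 8.89-fold. With the unequal depth of the libraries, equal counts are not equal densities: per kb and 1000000 kept tags this pair had a log2 ratio of 0.09 (-0.85 to 1.03).

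By gene order Slc25a2 and Taf7 stand between the beta and gamma clusters. The stretch between these blocks had 7 sites, with 6 peaks in the AA-labelled list and 5 in the other, and 4 of the sites were in both. The pair at 37735311 to 37736173 had 26 tags at 14.56-fold and 24 tags at 12.45-fold, the highest mean fold among the 35 pairs of the window. Nearer to the gamma block lay pairs at 37789633 to 37791289 with 65 and 63 tags (9.14-fold and 7.86-fold) and at 37797538 to 37799009 with 40 and 24 tags (10.23-fold and 6.82-fold). AA-labelled peaks stood alone at 37724649 to 37725134 (14 tags, 11.88-fold) and 37703117 to 37704230 (22 tags, 8.91-fold), and a no-AA-labelled peak at 37778068 to 37778706 (20 tags, 9.78-fold).

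The gamma block held the longest and most tag-rich peaks of the window, at a fold enrichment below that of the other blocks. Its median peak was 1927 bp long (1131 to 2695) with 54 tags (29 to 83) in the AA-labelled list, and 1455 bp (922 to 2340) with 58 tags (30 to 94) in the other. In the alpha block these medians were 1287 bp with 35.5 tags and 828.5 bp with 30.5 tags, and in the beta block 1148 bp with 29.5 tags and 729 bp with 25 tags. Peaks covered 15.5% and 15.9% of the gamma block, against 7.02% and 6.07% of the alpha and 7.37% and 3.85% of the beta block. At least 100 tags were reached by 4 of 17 AA-labelled and 4 of 21 no-AA-labelled gamma peaks, and by no peak of the other blocks. Of all peaks 2.28% and 1.70% reached that count.

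The fold enrichment ran the other way. Its median in the gamma block was 6.94 (5.53 to 7.94) and 5.05 (4.29 to 5.66) for AA-labelled and no-AA-labelled peaks, against 9.80 (8.59 to 14.1) and 8.64 (7.12 to 9.87) in the alpha block. The flanks also lay below alpha, with medians of 6.67 and 6.79 before the window and 6.415 and 5.45 after it. Low folds are thus not particular to gamma. In the flank after the window, 3 of 46 AA-labelled and 0 of 38 no-AA-labelled peaks were at least 10-fold. Of the gamma peaks 2 of 17 AA-labelled and 0 of 21 no-AA-labelled ones were at least 10-fold, the latter a share of at most 16.1% (Clopper-Pearson). At that cutoff the gamma density over the rest of chromosome 18 fell to 1.87 times from 3.80 (AA-labelled) and to 0 from 4.37 (no-AA-labelled). Tag density was not low there, with medians of 2.52 and 2.01 tags per kb and 1000000 kept tags, against 2.20 and 1.91 in the alpha block. The file headers name a regional background over 10000 bp, but the background behind each single fold is not given. Of the distances between neighbouring gamma peaks 68.8% and 75% were under 10 kb. In the alpha block 61.5% and 94.1% were. The part of the spacing in the low folds was not tested.

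**Figure D4:**
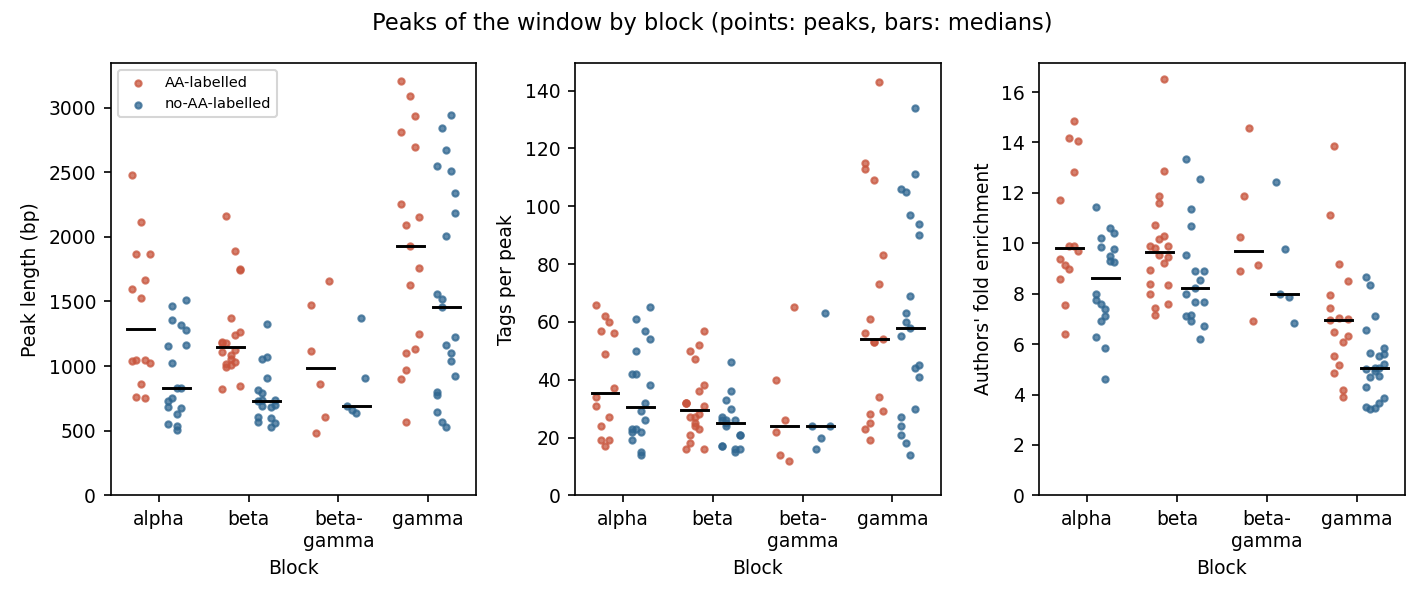
Panels show the length (bp), the tags and the authors' fold enrichment of every peak of the window (y axes) by block (x axis), with points for peaks and bars for medians of each list. Gamma peaks reach 3209 bp and 143 tags, and their median folds of 6.94 and 5.05 are the lowest of the 4 stretches in both lists.

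The most tag-rich AA-labelled peak of the window was at 37925430 to 37928366, with 143 tags (120.5 to 168.5) at 3.91-fold. Its partner had 94 tags at 3.85-fold. Next in tags, and the longest of the window at 3209 bp, was the AA-labelled peak at 37849419 to 37852627, with 115 tags at 6.94-fold, followed in length by 37902211 to 37905298 with 109 tags at 5.18-fold. In the no-AA-labelled list the most tags and the greatest length, 134 tags in 2945 bp, belonged to a peak at 37921154 to 37924098. This peak, at 3.67-fold, had no AA-labelled partner. It ends close before the AA-labelled peak of 143 tags. The next no-AA-labelled peak in tags was at 37840262 to 37842770 with 111 tags and the next in length at 37902478 to 37905322 with 2845 bp.

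By mean fold the leading gamma pairs were others. They lay at 37812159 to 37813056 (23 tags at 11.12-fold, 21 at 8.66-fold), 37828755 to 37830380 (53 tags at 9.19-fold, 69 at 5.05-fold) and 37890851 to 37893663 (113 tags at 7.94-fold, 90 at 5.59-fold). AA-labelled gamma peaks without a partner were led by 37867161 to 37868132 (25 tags, 13.86-fold) and 37943368 to 37944613 (29 tags, 8.51-fold). Those of the no-AA-labelled list were led by 37823439 to 37824004 (18 tags, 8.36-fold) and 37987387 to 37987912 (14 tags, 7.12-fold).

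Near the far end of the gamma block lay a stretch where only the no-AA-labelled list had peaks. In the 30.5 kb between the AA-labelled peaks that end at 37968911 and begin at 37999403, the no-AA-labelled list had 5 peaks and the AA-labelled list none. They held 14 to 60 tags at 3.52-fold to 7.12-fold, and none of the 5 had a p of at most 1e-10. Being unshared is common among such weaker no-AA-labelled peaks, at 1107 of 1700 on the rest of chromosome 18 and 33561 of 52057 in all. This stretch was singled out after its values were seen. In gene order it is the side of Pcdhgc3, Pcdhgc4 and Pcdhgc5, the last genes of the cluster, but no peak was assigned to them. In the whole gamma block 12 of 26 sites were in both lists, 5 in the AA-labelled list alone and 9 in the other alone. The no-AA-labelled library had 1.55 times the kept tags, and the part of that depth in the weak peaks of this stretch was not tested.

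Taking all peaks, the lists did not differ in their number in the window beyond counting error. Divided by the no-AA-labelled number, the AA-labelled number of members came to 0.934 (0.640 to 1.36), near the 0.929 of the rest of chromosome 18. Joining peaks within 500 bp of each other, a choice made after seeing the data, brought it to 1.02. The ratio moved past 1 with stricter cutoffs, to 1.32 with a p no higher than 1e-10 and to 1.89, from 17 and 9 peaks, at 10-fold or more. By covered length the ratio was 1.23 in the window and 1.27 on the rest of the chromosome. By block it ran from 0.974 in gamma to 1.91 in beta. In pairs the AA-labelled peak was the longer, by a median of 1.27 times in the window and 1.22 times on the rest of chromosome 18.

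In 34 of the 35 pairs of the window, tag density was higher in the AA-labelled library when scaled to kept tags. Across the pairs the AA-labelled density had a median of 2.45 tags per kb and 1000000 kept tags, and the no-AA-labelled density one of 1.86. On the log2 scale their ratio had a median of 0.40 (0.28 to 0.55 over pairs), against 0.23 in the 855 pairs on the rest of chromosome 18, where 76.8% were higher in the AA-labelled library. In the flanks the AA-labelled density was higher in 9 of 9 pairs before the window and in 15 of 16 after it. Such a near-uniform direction is thus not particular to the window. The 9 pairs in the flank before the window had a median of 0.19 (0.03 to 0.78) and the 16 in the flank after it one of 0.35 (0.20 to 0.41), intervals that overlap the window's. The sign rests on the scaling: the window's median was -0.12 with scaling to tags in peaks and -0.23 with none. The gap of 0.17 between the window and the rest of the chromosome is the same under each scaling by a single factor. It was 0.19 in tags per peak and 0.02 in the authors' fold enrichment.

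The gap was smaller among strong pairs. In the 14 pairs whose peaks both had a p no higher than 1e-10, the median log2 ratio was 0.43 (0.29 to 0.62), beside 0.37 in the 167 such pairs on the rest of chromosome 18, a value inside the window's interval. In the 21 other pairs it was 0.34 (0.20 to 0.56), beside 0.19 in 688 pairs on the rest of the chromosome. No pair of the window was over 2-fold higher or lower in the AA-labelled library, beside 1.47% and 0.0223% of all 26954 pairs in the lists.

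By block the median log2 ratio was 0.34 in the 9 alpha, 0.29 in the 10 beta and 0.49 in the 12 gamma pairs, with intervals of 0.17 to 0.62, 0.13 to 0.65 and 0.25 to 0.61 that overlap. In the 4 pairs between beta and gamma it was 0.41. The interval of the single pair excluded 0 in 6 of 35 pairs, 5 of them in the gamma block. That block had both the largest median tag counts and the highest median ratio, and the part of each was not tested. The intervals of single pairs are not adjusted for the number of pairs, and they rest on the scaling to kept tags. They were not computed for pairs outside the window. Whether 6 of 35 is many or few among all pairs is therefore not known.

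**Figure D5:**
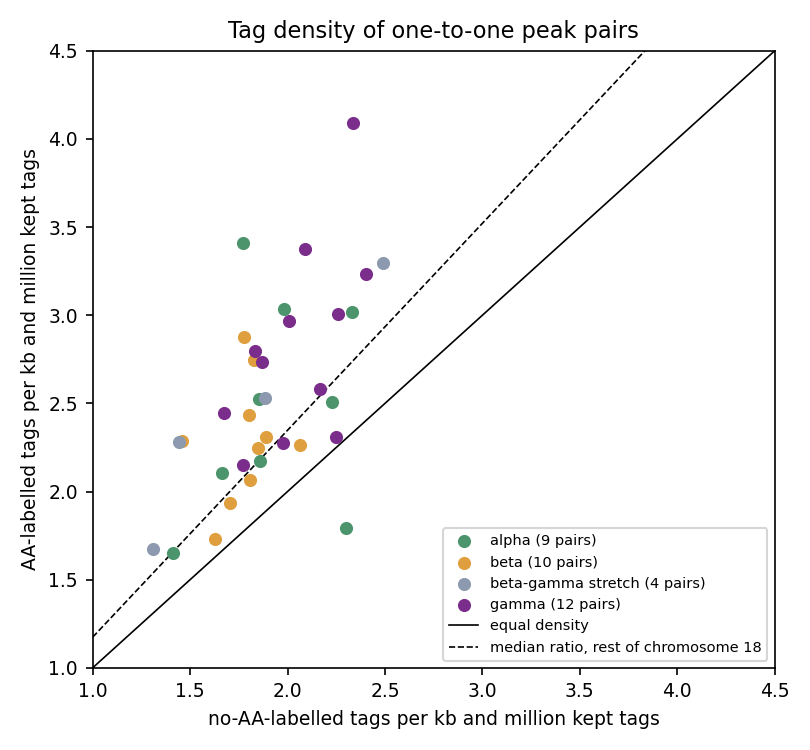
Each point is a pair of overlapping peaks, with the no-AA-labelled (x axis) and AA-labelled (y axis) tag density in tags per kb and 1000000 kept tags, coloured by block. Points above the solid line of equal density number 34 of 35; the dashed line marks the median ratio on the rest of chromosome 18.

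The highest density ratio among the 26 pairs where either library had 30 tags or more was that of the alpha pair at 37106697, which had 62 and 38 tags and came to 0.95 (0.34 to 1.57) on the log2 scale. Behind it were the gamma pair at 37925430 at 0.81 (0.42 to 1.20) and the beta pair at 37634372 to 37635744 at 0.69 (-0.03 to 1.44), with 47 and 26 tags. The lowest was in the same alpha row, at 37133858 to 37135451, with 34 tags against 54. Its log2 ratio was -0.36 (-1.02 to 0.29), and it was the 1 pair of the window with the lower density in the AA-labelled library, and its interval holds 0. Next came the gamma pair at 37874777 to 37876703 at 0.04 (-0.52 to 0.59) and the beta pair at 37603147 at 0.13 (-0.66 to 0.94). These are the ends of 26 pairs.

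Summits, the points of highest pile-up, lay close together in the pairs. The median distance between the summits of a pair was 129 bp in the window and 114 bp on the rest of chromosome 18. It was 96 bp in the alpha, 90 bp in the beta and 205 bp in the gamma pairs, whose peaks were the longest. The fullest no-AA-labelled bin of 50 kb was the first of the window, from 37080000 to 37130000, with 9 peaks against 5, and 1 of the 19 bins was empty in both lists.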

How the data were processed

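The data were 2 peak lists from pull-down of 5hmC-bearing DNA, 1 library per group, grouped by the labels. Per the submitters' processing notes, BWA 0.5.9-r16 aligned the reads to mm9 and MACS 1.4.2 called the peaks. Per the file headers, each library was called alone with no control library, at a p cutoff of 1e-05, with 1 tag of 101 bp kept per position and a regional background over 10000 bp. How reads with several matches were handled is not given in the sources used here. A deposited row gives a tag count (whole, not scaled to library size), the −log10 of the Poisson p-value multiplied by 10, and a fold enrichment. The latter is a ratio to the caller's background in the same library, whose value is not given per peak.

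Members were peaks with their midpoint in the window, and sub-blocks split them. Peaks overlapping by at least 1 bp were shared, and those overlapping one to one were pairs. Tag density is given per kb and 1000000 kept tags. Intervals are exact 95% ones (Poisson, Clopper-Pearson, conditional for ratios, order statistics for medians) and cover counting error or the spread over peaks only. Since tags carry no molecular identifiers, they are not certain to be separate molecules. With 1 library per group no test was made. The code was tested on simulated data. The window, sub-blocks and lists were chosen with earlier results of these data known. Regions named are, per sub-block, up to 3 pairs of highest mean fold and up to 2 unshared peaks per list. To these come the 3 pairs of highest and the 3 of lowest density ratio, where either library has 30 tags or more, the 2 longest and 2 most tag-rich peaks per list, the edges, the longest empty stretch and the fullest 50-kb bins. Others are marked as chosen after their values were seen. Alternatives were stricter cutoffs, other placements, overlaps, scalings and flanks, lists of equal length and lists exchanged. Python 3.11.15, NumPy 2.4.6, pandas 2.3.3, SciPy 1.17.1 and matplotlib 3.10.9 were used.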

Additional observations from a re-analysis of the deposited data

How the results depend on the processing

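Values are given as AA-labelled, then no-AA-labelled. With a p of at most 1e-10, window peaks fell from 57 and 61 to 29 and 22, their covered length from 83.4 and 67.7 kb to 52.0 and 29.8 kb, and the no-AA-labelled shared share moved from 70.5% to 81.8%. Density over the rest of chromosome 18 moved from 2.88 and 2.87 to 6.50 and 5.97 in the window, from 2.35 and 2.81 to 6.70 and 9.01 in alpha, from 2.76 and 2.18 to 4.29 and 3.71 in beta, from 2.82 to 6.25 between beta and gamma and from 3.80 to 9.92 in gamma (the last 2 AA-labelled), and over the flanks from 1.61 and 1.80 to 8.91 and 9.46. Keeping peaks of 10-fold or more, peaks were 17 and 9, covered length 20.6 and 8.11 kb, shared shares 23.5% and 44.4%, and the ratio of peak numbers 1.89. AA-labelled density over the flanks was then 5.22 and gamma over the rest 1.87; no-AA-labelled density over the rest was 3.95 in the window, 5.83 in alpha, 4.80 in beta and 0 in gamma, which turned round. By covered length, density over the rest was 3.80 in the no-AA-labelled window and 6.36 and 8.28 in gamma. With 50% reciprocal overlap 55.7% of no-AA-labelled members were shared. Against the flanks the median tags ratio turned to 0.941 and moved to 0.935, and the median fold ratio moved from 1.13 and 1.04 to 1.42 and 1.21. Among strong peaks the AA-labelled median fold ratio turned to 0.915 and that of the p score moved from 1.47 to 1.04. The median log2 ratio of pairs, 0.40, was 0.75 in tags per peak, 0.56 scaled to tags before duplicate removal, -0.12 scaled to tags in peaks, -0.23 unscaled and -0.40 with the lists exchanged. Peak numbers and covered length fall under stricter cutoffs by construction. Scaling by another single factor likewise shifts the log2 ratio of every pair alike. For the other values, the density ratios and shared shares among them, the cause was not tested. The other 128 values kept to their intervals or stayed within 1.5 times the main count. No paired analysis was possible because a single library stands for each group, and for the same reason no library was left out. Counts of 5 to 21 peaks per block leave wide intervals.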
